A study of Saccharomyces cerevisiae with 10 samples.

Results

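Small nucleolar RNAs (snoRNAs) and small nuclear RNAs were followed in ribosome footprint libraries of budding yeast, strain 74D694. The members are all features of the deposited synthetic-medium table whose name begins with snR, 58 of 6190 features. They were split by box class into 26 H/ACA snoRNAs, 29 C/D and other snoRNAs (called C/D below) and 3 spliceosomal RNAs, snR6 (U6), snR14 (U4) and snR19 (U1). They were chosen with the means of both conditions in this table known, so that contrast is given for them as a description, with no test beside the calls of the authors' deposited table.

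Both conditions carried [PSI+], the self-propagating aggregated form of the translation termination factor Sup35. In 1 of them the cells also overexpressed the C-terminal region of Sup35 (SUP35-Cter), which can still terminate translation and does not contain the part that forms the prion. Each condition had 2 footprint libraries, from cells grown at 30 °C in YNB with 2% glucose and no uracil to an OD600 between 0.6 and 0.8 and treated with cycloheximide. How the overexpression was driven, and whether the [PSI+] cells held an empty plasmid, is not stated in the labels. A second experiment in rich medium (YPD) had 2 footprint libraries and 1 mRNA library each of [PSI+] and [psi-] cells; snR features of these libraries were not analysed here, and they serve below only for the protein partners of the snoRNAs.

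snoRNAs are untranslated guide RNAs of the nucleolus. C/D snoRNAs pair with ribosomal RNA and direct the methyltransferase Nop1 to a ribose, and H/ACA snoRNAs direct the pseudouridine synthase Cbf5 to a uridine. A few of either class are needed for cleavage of the precursor rRNA instead of its modification. Footprints are the RNA fragments left after nuclease digestion, so a read on a snoRNA shows a protected RNA fragment and not a ribosome. Fewer cells or less RNA per cell cannot be told apart in such bulk libraries.

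All 58 members matched a RefSeq gene of assembly R64, which is the build sacCer3 of these data. H/ACA members were up to 1004 nucleotides long (median 202) and C/D members 82 to 490 nucleotides (median 98). None of the 58 lies inside a protein-coding gene. Of the 81 snR genes that RefSeq names, 23 were not analysed here, and 8 of these lie inside a protein-coding gene. snR17a, on chromosome XV, overlaps a protein-coding gene, IRC13, so its reads are uncertain. snR17a and snR17b are near-identical copies of U3 whose reads the counting could have split.

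The table gives 1 mean per condition, as reads divided by the authors' size factor of each library (normalized counts). Each mean is a sum of whole reads weighted by both libraries' factors, and the reads of each library could be worked back for 51 members and for 5283 features in all. The 7 members without them, snR4, snR8, snR11, snR19, snR37, snR43 and snR45, have only condition means. Over these 5283 features the SUP35-Cter libraries held 12445899 and 7654907 reads and the [PSI+] libraries 11205620 and 2693372. Which replicate number of the labels each belongs to is unknown, so they are called the deeper and the shallower library of their condition. One read in the shallower [PSI+] library is worth 2.78 normalized counts, against 0.598 in the deeper SUP35-Cter library, and 3 reads there are worth 8.33, so low members are least certain in it. SUP35, read as a check of the labels, had an authors' mean of 20432 in SUP35-Cter and 6207 in [PSI+].

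Both box classes had higher means in SUP35-Cter than in [PSI+], H/ACA by more. On the log2 scale of the ratio of means, with 0.5 added to each, the median was 2.20 for the 26 H/ACA members and 1.24 for the 27 C/D members with a mean of 10 or more. It was 0.41 for the 3 spliceosomal RNAs and -0.03 for the 5510 other features above the same minimum. Of the H/ACA members 25 had a higher mean in SUP35-Cter and 1, snR49, a lower one. Of the 29 C/D members 24 were higher and 5 lower, namely snR4, snR40, snR62, snR66 and snR79. With a mean of 10 or more, 21 of 26 H/ACA and 19 of 27 C/D members were more than 2-fold higher, against 3.90% of all features, and 16 and 7 were more than 4-fold higher.

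These ratios rested largely on 1 library. The deeper SUP35-Cter library gave 52605 normalized counts over the 22 H/ACA members with recovered reads and the shallower one 10979, against 7747 and 4446 in the deeper and the shallower [PSI+] library. For the 27 C/D members with recovered reads the sums were 24241 and 5749 in SUP35-Cter, against 9715 and 10734 in [PSI+]. Members with recovered reads made up 1.08% of the recovered reads of the deeper SUP35-Cter library and 0.282% of the shallower one, against 0.318% and 0.247% of the [PSI+] libraries. With all classes together, the shallower SUP35-Cter library thus held a share between those of both [PSI+] libraries. By class it did not lie between them. Its sum was above both [PSI+] libraries for H/ACA members (10979) and below both for C/D members (5749). The C/D sum leaned on abundant members and lacks snR4 and snR45. In this library snR40 held 985.2 against 4742 and 5409 in [PSI+], snR66 284.4 against 1524 and 1526, and snR67 603.7 against 927.3 and 2389. snR64 (1234 against 737.8 and 249.8) and snR52 (1049 against 411.5 and 88.8) went the other way. Among the 25 C/D members above the minimum mean, 14 lay below the [PSI+] mean in this library and 11 above, so the sum does not describe the whole class.

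Against the [PSI+] mean, the H/ACA median was 2.85 on the log2 scale in the deeper SUP35-Cter library and 0.67 in the shallower one. The C/D medians were 2.01 and -0.08, and those of other features 0.00 and 0.02. The H/ACA median stood above the C/D median by 0.84 in the deeper and by 0.75 in the shallower library. More than 2-fold above the [PSI+] mean were 20 of 22 H/ACA and 20 of 25 C/D members in the deeper library, against 6.57% of all features. In the shallower library they were 8 of 22 and 5 of 25, against 2.68%. Members share their libraries and are not replicates, so the class difference carries no test.

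**Figure D1:**
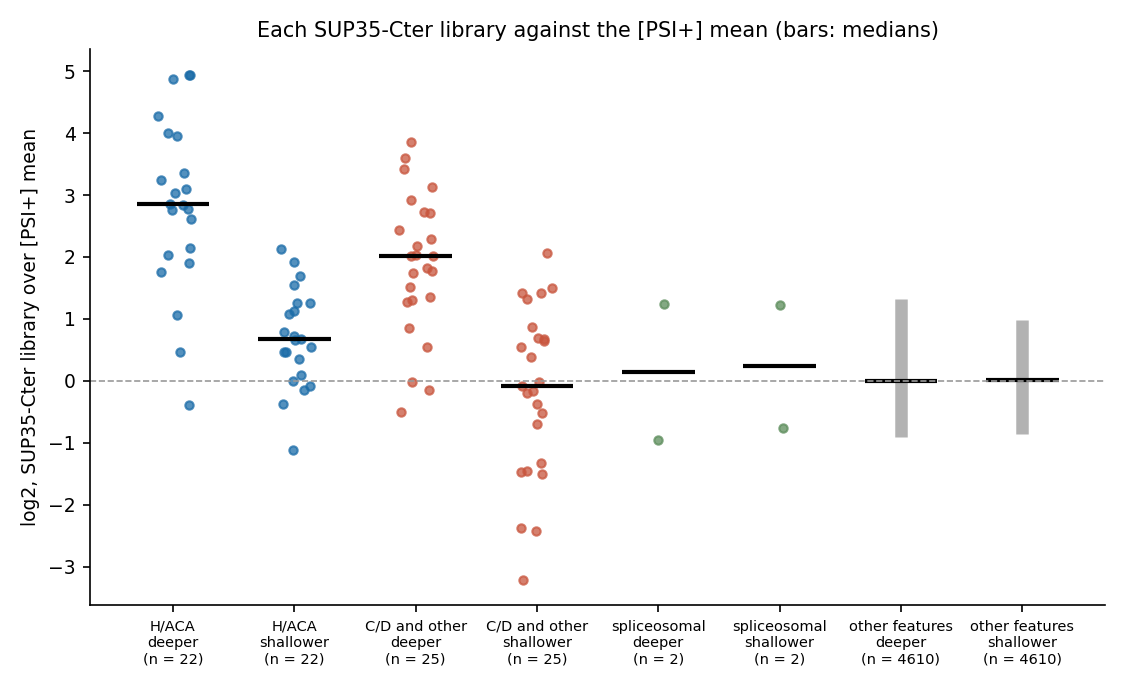
Log2 ratio of each SUP35-Cter library (deeper, shallower) to the mean of both [PSI+] libraries, for members with recovered reads and a mean of 10 or more. Points are members, bars are medians, and the grey bars on the right span the central 95% of other features. The H/ACA medians are 2.85 and 0.67 and the C/D medians 2.01 and -0.08.

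Within SUP35-Cter the deeper library exceeded the shallower one by a median of 2.31 on the log2 scale for both H/ACA and C/D members, a 4.98-fold and 4.96-fold difference. For other features the median was 0.00, with a central 95% from -0.79 to 0.90 (shown as a grey box in the plot of differences within a condition). All 22 H/ACA members were higher in the deeper library, from 0.73 (snR49) to 3.45 (snR46). Of the 25 C/D members 23 were, and snR17a and snR62 were not. The 2 spliceosomal RNAs with recovered reads, snR6 at 0.01 and snR14 at -0.19, hardly differed between these libraries. Of 49 members 42 were more than 2-fold higher in the deeper library (85.7%), against 93 of 4610 other features (2.02%). What sets this library apart was not tested.

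The [PSI+] libraries differed less. The deeper over the shallower gave a median of 0.62 for H/ACA members, with a range from -1.21 (snR80) to 3.31 (snR46). For C/D members the median was 0.32, from -1.70 (snR61) to 2.25 (snR62), and for other features 0.05. In [PSI+] 14 of 25 C/D members were higher in the deeper library, against 23 of 25 in SUP35-Cter. In 43 of 49 members the highest of the 4 libraries was the deeper SUP35-Cter one, which was the highest for 28.1% of other features. The exceptions were snR49, snR62 and snR14, highest in the deeper [PSI+] library, snR66 and snR79, highest in the shallower one, and snR17a, highest in the shallower SUP35-Cter library.

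**Figure D2:**
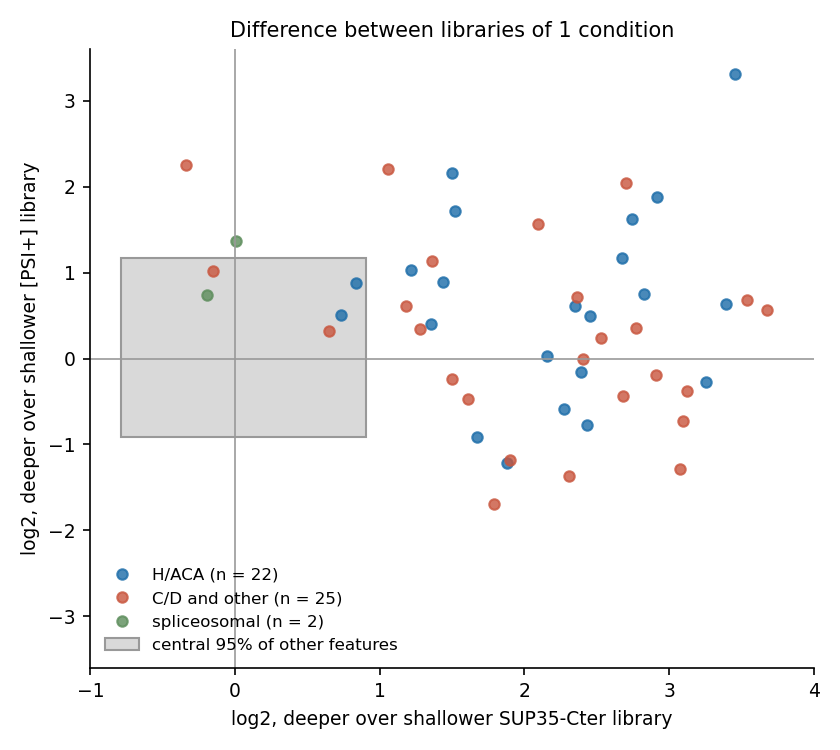
Log2 ratio of the deeper to the shallower library within SUP35-Cter (horizontal) and within [PSI+] (vertical), 1 point per member with a mean of 10 or more. The grey box spans the central 95% of other features. 46 of 49 members lie right of 0, while along the vertical axis 32 lie above 0.

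Both SUP35-Cter libraries stood above both [PSI+] libraries in 14 of 22 H/ACA and 10 of 25 C/D members, against 26.2% of all features. Both stood below in 1 member of either class and in 1 spliceosomal RNA, against 20.7%. The authors' deposited table called 19 H/ACA and 5 C/D members, and none of the 3 spliceosomal RNAs, as higher in SUP35-Cter at an adjusted p under 0.05, against 1.20% of all features. No member was called lower there, against 0.129%. Since the members were chosen on this contrast, nothing is read from these counts. The deposited p-values followed from a dispersion set by the mean alone, so a member's own spread between libraries did not enter them. Of the 21 called members with recovered reads, 16 had both SUP35-Cter libraries above both [PSI+] libraries. Of 47 called other features with recovered reads and a mean of 10 or more, 46 did. The 5 members that did not were all H/ACA, the class of 17 of these 21 members. Over all features with recovered reads, the quasi-likelihood test of edgeR called 0 of 4713 at a Benjamini-Hochberg adjusted p under 0.05, and 652 (13.8%) had an unadjusted p under 0.05.

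**Figure D3:**
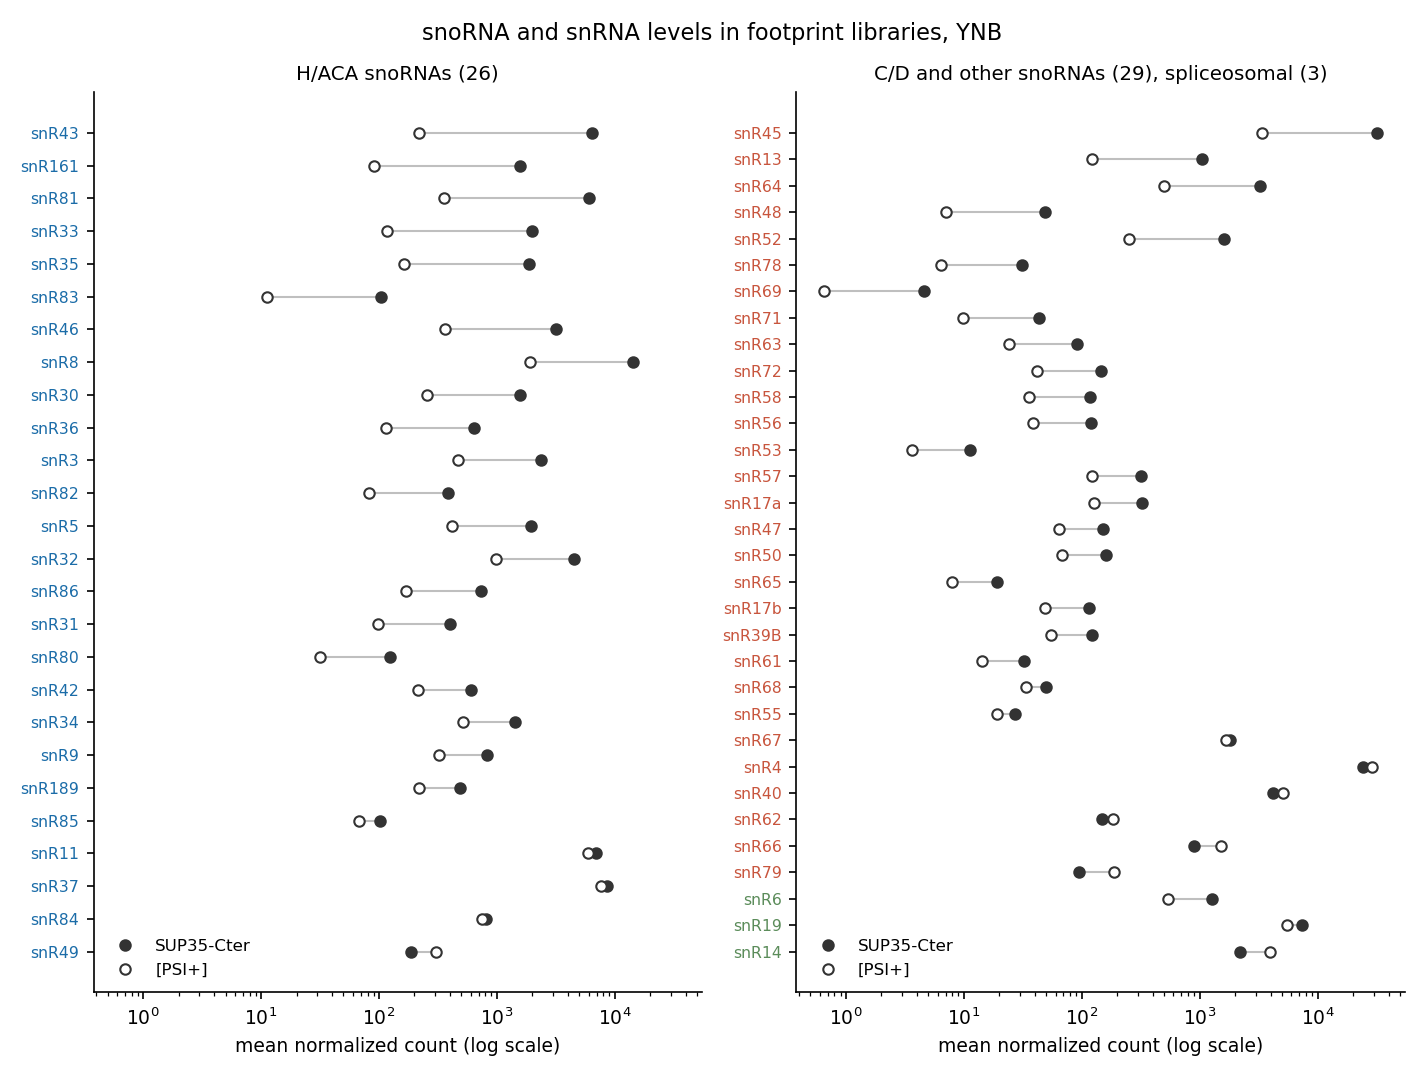
Mean normalized count of every member in SUP35-Cter (filled) and [PSI+] (open) on a log axis, sorted by their ratio within each class. Names are blue for H/ACA, red for C/D and green for spliceosomal RNAs. 25 of 26 H/ACA members lie to the right in SUP35-Cter, against 24 of 29 C/D members.

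The H/ACA guides with the highest ratios were snR43, snR161, snR81, snR33, snR35 and snR83. snR43, a guide for the large-subunit rRNA on chromosome III (107504 to 107712, minus strand), had a mean of 6399 in SUP35-Cter and 219.9 in [PSI+], a log2 ratio of 4.86. Its reads per library were not recovered, so the part of each library in it is unknown. snR81, on chromosome XV (234346 to 234546, plus strand), pairs with both the large-subunit rRNA and the spliceosomal U2 RNA. It had 10517 and 1567 normalized counts in the SUP35-Cter libraries, deeper first, against 539.8 and 174.8 in the [PSI+] libraries. The groups did not overlap, and the lower SUP35-Cter value was 4.39-fold the [PSI+] mean, the largest such value among the 22 H/ACA members with recovered reads.

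snR161, a guide for the small-subunit rRNA on chromosome II (307185 to 307345, minus strand), had 2826 and 295.7 normalized counts in SUP35-Cter, against 82.7 and 99.9 in [PSI+]. snR33, a large-subunit guide, had 3600 and 342.8, against 142.0 and 91.6. In neither did the conditions overlap, and the SUP35-Cter libraries differed from each other by more than the lower of them differed from [PSI+]. snR35 guides the uridine of the small-subunit rRNA that later becomes a hypermodified base at the decoding site. It had 3154 and 616.9 normalized counts in SUP35-Cter, against 196.0 and 127.7 in [PSI+], with no overlap and 3.81-fold the [PSI+] mean in the shallower library. snR83, a small-subunit guide and the lowest of these, had 183.4 and 25.4 normalized counts in SUP35-Cter and 14.3 and 8.33 in [PSI+]; the last value stands for 3 reads.

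Among H/ACA members the order of levels per length differed between the conditions. Per 100 nucleotides, snR8 had 7453 normalized counts in SUP35-Cter and 1003 in [PSI+], snR43 3062 and 105.2, and snR81 3006 and 177.8. snR11 had 2687 and 2297 and snR37 2241 and 1962. snR11 and snR37 thus led in [PSI+] and had log2 ratios of only 0.23 and 0.19. All of these but snR81 lack reads per library. snR32, a large-subunit guide, had 6607 and 2332 normalized counts in SUP35-Cter, against 1591 and 355.2 in [PSI+], and the groups did not overlap. snR3 had 3964 and 734.6, against 343.2 and 585.5, also without overlap. snR46 had 5864 and 535.0 in SUP35-Cter, against 663.5 and 66.6 in [PSI+]. Its deeper [PSI+] library lay above the shallower SUP35-Cter one, so here the conditions overlapped, although its log2 ratio of means was 3.13.

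snR30 is the H/ACA snoRNA that is needed for cleavage toward the small-subunit rRNA rather than for a modification. It lies on chromosome XII (198784 to 199389, plus strand). It had 2618 and 539.7 normalized counts in SUP35-Cter, against 202.5 and 305.3 in [PSI+]. Both SUP35-Cter libraries were higher, at 10.3-fold and 2.13-fold the [PSI+] mean.

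At the low end of the class, snR34, a large-subunit guide, had 2305 normalized counts in the deeper SUP35-Cter library and 516.1 in the shallower one, against 522.2 and 513.4 in [PSI+]. The shallower SUP35-Cter library lay between the [PSI+] libraries, and the deeper one alone set the log2 ratio of 1.45. For snR31, a small-subunit guide with a log2 ratio of 2.02, the shallower SUP35-Cter library held 93.2, against 155.0 and 41.6 in [PSI+]. Without the deeper SUP35-Cter library the log2 ratio of snR34 was -0.01 and that of snR31 -0.08. snR189, which guides both subunits, had 743.9 and 233.6, against 151.7 and 285.8, with overlap.

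snR84, a large-subunit guide, had 1037 and 579.2 normalized counts in SUP35-Cter and 970.2 and 527.3 in [PSI+], nearly the same pair of values in both conditions. snR85, a small-subunit guide, had 142.8 and 61.2, against 91.2 and 44.4. snR49, a guide for both subunits, was the one H/ACA member below [PSI+] in both libraries, at 231.8 and 139.4 against 354.9 and 249.8. Of the 22 H/ACA members with recovered reads it also differed least between the SUP35-Cter libraries.

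Among C/D members the highest ratios were those of snR45, snR13, snR64, snR48, snR52 and snR78. snR45 and snR4 are C/D snoRNAs that guide acetylation of cytidines in the small-subunit rRNA instead of methylation. Both are among the most abundant, and they differed in direction. snR45 (chromosome XVI, 821732 to 821903, plus strand) had a mean of 31984 in SUP35-Cter and 3354 in [PSI+]. snR4 (chromosome V, 424698 to 424883, plus strand) had 24390 and 28816. Per 100 nucleotides snR45 held 18595 and 1950 and snR4 13113 and 15493 normalized counts, so that snR45 was above snR4 in SUP35-Cter and below it in [PSI+]. Neither has reads per library, so how far the deeper SUP35-Cter library carries the snR45 mean is unknown.

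snR13, snR64 and snR52 had SUP35-Cter values above both [PSI+] libraries. snR13, a large-subunit methylation guide, had 1767 and 342.8 normalized counts in SUP35-Cter, against 151.1 and 91.6 in [PSI+]. snR64, another large-subunit guide, had 5278 and 1234, against 737.8 and 249.8. snR52, a guide for both subunits that RNA polymerase III transcribes, had 2181 and 1049, against 411.5 and 88.8. Its SUP35-Cter libraries were 2.08-fold apart, the smallest gap of these 3, and the shallower one stood at 4.19-fold the [PSI+] mean. snR48 had 151 and 7 reads in SUP35-Cter and 13 and 2 in [PSI+], or 90.2 and 6.59 against 8.47 and 5.55 normalized counts, so that its log2 ratio of 2.70 came from the deeper library. snR78 had 44.2 and 17.9, against 7.16 and 5.55, the last from 2 reads.

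**Figure D4:**
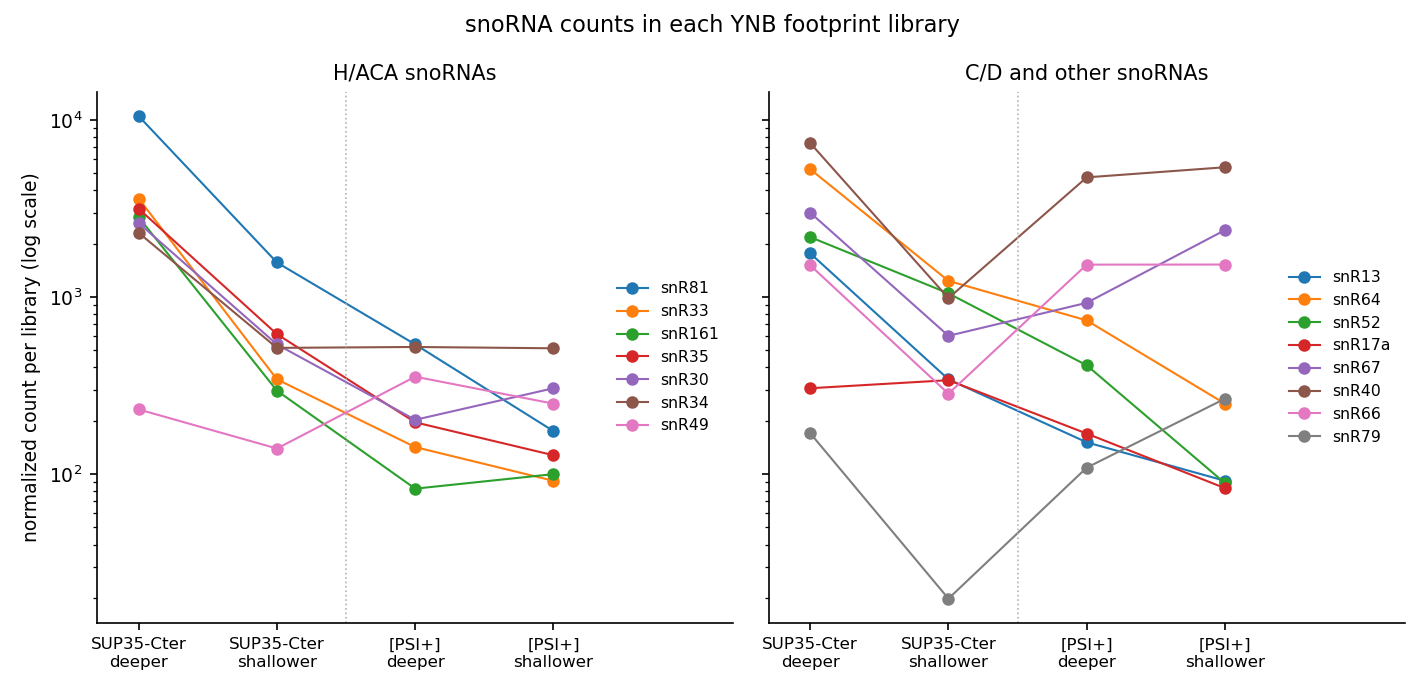
Normalized counts of selected H/ACA (left) and C/D (right) snoRNAs in the deeper and shallower SUP35-Cter libraries and the deeper and shallower [PSI+] libraries, on a log axis; lines join the values of 1 snoRNA. Most lines fall steeply between the SUP35-Cter libraries. snR40, snR66, snR67 and snR79 are lower in the shallower SUP35-Cter library than in either [PSI+] library.

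The C/D members with the lowest ratios included several abundant guides. snR40, a guide for both subunits on chromosome XIV (89210 to 89306, plus strand), had 7414 normalized counts in the deeper SUP35-Cter library and 985.2 in the shallower one, against 4742 and 5409 in [PSI+]. The [PSI+] pair lay between both SUP35-Cter values. snR67, a large-subunit guide, had 2999 and 603.7, against 927.3 and 2389, and the SUP35-Cter values again enclosed those of [PSI+]. snR66, also a large-subunit guide, had 1512 and 284.4, against 1524 and 1526. Its deeper SUP35-Cter library was thus at the [PSI+] level and the shallower one at 0.187-fold.

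snR79, a small-subunit guide, had 170.3 and 19.8 normalized counts in SUP35-Cter, against 108.7 and 266.4 in [PSI+]. Its shallower SUP35-Cter library stood at 0.105-fold the [PSI+] mean, the lowest such value among members with recovered reads and a mean of 10 or more. snR62, a large-subunit guide, went the other way, with 130.3 and 164.8 in SUP35-Cter and 306.0 and 63.8 in [PSI+], where the libraries were 2.25 apart on the log2 scale. Of the 25 C/D members 14 were below the [PSI+] mean in the shallower SUP35-Cter library, 7 of them by more than 2-fold. Of the 22 H/ACA members 5 were, and 1 by more than 2-fold, snR49. Of 4610 other features 2189 were, and 81 by more than 2-fold.

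U3, the C/D snoRNA needed for cleavage of the rRNA precursor, is encoded by snR17a and snR17b. snR17a (chromosome XV, 780107 to 780596, plus strand) had 305.3 and 339.1 normalized counts in SUP35-Cter, against 169.3 and 83.3 in [PSI+]. snR17b (chromosome XVI, 281056 to 281517, minus strand) had 165.5 and 64.1, against 67.7 and 30.5. The groups did not overlap for snR17a and overlapped for snR17b. With near-identical copies, the division of reads between them is uncertain.

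Members that lie within 500 bases of another snR gene did not share 1 pattern. snR57, snR55 and snR61 lie together on the minus strand of chromosome XII and had log2 ratios of 1.35, 0.50 and 1.14. snR57 had 438.6 and 193.1 normalized counts in SUP35-Cter, against 149.1 and 97.1 in [PSI+], without overlap. snR55 had 47.8 and 6.59, against 21.5 and 16.7. snR61 had 50.2 and 14.1, against 6.51 and 22.2. The last 2 overlapped between conditions.

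snR67 and snR53 are neighbours on the plus strand of chromosome V. Per 100 nucleotides snR67 had 2197 normalized counts in SUP35-Cter and 2022 in [PSI+], and snR53 had 12.3 and 4.03, so that such neighbours lay far apart in level. snR72 and snR78, of the array on chromosome XIII whose other members were not analysed here, had log2 ratios of 1.78 and 2.20. snR5 and snR31, on opposite strands of chromosome XV, had 2.20 and 2.02. In the shallower SUP35-Cter library snR5 stood at 2.38-fold the [PSI+] mean and snR31 at 0.949-fold.

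Members were also grouped by the rRNA they guide. H/ACA guides of the large subunit had a median log2 ratio of 2.20 (15 members) and those of the small subunit 2.82 (6 members). C/D guides of the large subunit had 1.46 (16 members) and those of the small subunit 0.93 (4 members with a mean of 10 or more). The order of these medians was thus opposite in the 2 classes, but the ranges of the subunits overlapped in each. In H/ACA they ran from 0.11 to 4.86 (large) and from 0.59 to 4.09 (small). In C/D they ran from -0.76 to 3.115 (large) and from -0.98 to 1.62 (small). The box classes overlapped as well, from -0.70 to 4.86 for H/ACA and from -0.98 to 3.25 for C/D members. Across members, the rank correlation of the log2 ratio with gene length was -0.07 for 26 H/ACA and 0.25 for 27 C/D members, all from the same 4 libraries.

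The remaining members had log2 ratios of means within the class ranges given. Among H/ACA members these are snR36, snR82, snR86, snR80, snR42 and snR9, with log2 ratios from 1.35 to 2.49. Among C/D members they are snR71, snR63, snR58, snR56, snR47, snR50, snR65, snR39B and snR68, from 0.57 to 2.08. In the shallower SUP35-Cter library alone, snR71, snR63, snR47, snR65, snR39B and snR68 lay below the [PSI+] mean, from -0.20 (snR71) to -1.50 (snR39B). snR58, snR56, snR50 and the H/ACA members named here lay above it. snR69 and snR53 had means under 10 and entered no median. snR69 had 9 and 4 reads in SUP35-Cter and 2 and 0 in [PSI+]. A count of 0 in the shallower [PSI+] library allows up to 3 reads, or 8.33 normalized counts, so no difference was detectable for snR69 against that library.

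Of the spliceosomal RNAs, snR6 and snR14 did not show the gap between the SUP35-Cter libraries, and snR19 has no reads per library. LSR1, the spliceosomal U2 RNA and no member by its name, had 5176 and 2460 normalized counts there, 1.07 apart on the log2 scale. Its [PSI+] libraries differed in the same direction, at 1591 in the deeper and 707.7 in the shallower one. snR6, the U6 RNA, had 1270 and 1264 normalized counts in SUP35-Cter, against 775.5 and 299.7 in [PSI+]. Both SUP35-Cter libraries were above both [PSI+] libraries. snR14, the U4 RNA, had 2039 and 2332, against 4955 and 2969, with both SUP35-Cter libraries below. snR19, the U1 RNA, had means of 7331 in SUP35-Cter and 5499 in [PSI+].

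The proteins that bind and process snoRNAs were read in the same libraries as a list of 33 genes, 32 of them with a value. Their footprints did not show the difference between conditions. The 24 with recovered reads did not show the gap between libraries. Their log2 ratios of SUP35-Cter over [PSI+] ran from -0.49 (NAF1) to 0.58 (SEN1), with a median of -0.07. CBF5, the pseudouridine synthase, stood at -0.31, and NOP1, the methyltransferase, at 0.08. By the authors' deposited DESeq test 0 of 32 passed an adjusted p of 0.05, and 0 passed an unadjusted one, against 7.59% of all features. edgeR's quasi-likelihood test on the recovered reads passed 0 of 24 after adjustment and 1 before it, against 13.8% of all features before adjustment. The deeper over the shallower SUP35-Cter library gave a median of 0.02 over 24 of these genes, from -0.57 (PIH1) to 0.44 (NHP2). These 24 include no C/D core gene and 2 of the 4 H/ACA core genes, NHP2 and GAR1 (0.26).

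In YPD these genes were compared between [PSI+] and [psi-] footprints, a contrast the choice of the members did not use. Of 32 genes tested with edgeR's quasi-likelihood test and Benjamini-Hochberg adjustment over all 5135 genes, 11 rose and 7 fell in [PSI+], against 15.7% and 18.9% of all genes. The list's median log2 fold change was 0.14, against 0.02 over all genes. NOP58 had no counted reads in any YPD library, mRNA included, and no value in YNB, so it was left out. Whether this reflects the counting or its level was not tested.

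Of the 4 H/ACA core genes 1 rose and 1 fell, and of the 3 C/D core genes tested 2 rose; the difference between these groups was not tested. In the H/ACA core, NOP10 had 609.1 and 784.6 CPM in [PSI+], against 1809 and 1747 in [psi-], a log2 fold change of -1.19 ± 0.17 (SE; adjusted p = 0.00556 by edgeR). NHP2 rose, with 230.8 and 188.5 CPM against 167.6 and 161.7 (0.51 ± 0.14). CBF5 had 1694 and 1017 CPM in [PSI+], against 958.4 and 1004, and did not pass (adjusted p = 0.103 by edgeR). Its [PSI+] libraries lay apart, the lower one beside the [psi-] values.

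In the C/D core, NOP1 rose, with 2126 and 2153 CPM in [PSI+] and 1345 and 1372 in [psi-] (0.82 ± 0.13, adjusted p = 0.00742 by edgeR). SNU13, the protein that binds the RNA fold of C/D snoRNAs and U4, rose by less (0.39 ± 0.11), and NOP56 did not pass (0.57, adjusted p = 0.0581 by edgeR). RRP9, which binds U3, rose (0.54 ± 0.15). Of the 7 C/D assembly factors 2 fell and 5 did not pass. TAH1 had 92.2 and 129.7 CPM in [PSI+], against 435.5 and 430.4 in [psi-] (-1.79 ± 0.18), and its partner PIH1 had 37.7 and 65.4, against 119.9 and 112.9 (-0.99 ± 0.25).

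Of 15 genes of end processing and termination 7 rose and 4 fell. Those that rose were DBR1, the lariat debranching enzyme, the exosome genes LRP1 and DIS3, the cap methyltransferase gene TGS1, the poly(A) polymerase gene TRF5, and SEN1 and PCF11 of transcription termination. Those that fell were RNT1, the RNase III that cuts snoRNA precursors, the exonuclease gene RAT1, the exosome cofactor gene MPP6, and NRD1 of termination. RNT1 had 41.8 and 45.2 CPM in [PSI+], against 76.1 and 85.4 in [psi-] (-0.72 ± 0.14). PCF11 had the largest rise, at 49.3 and 76.3 CPM against 35.3 and 28.7 (1.15 ± 0.25).

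**Figure D5:**
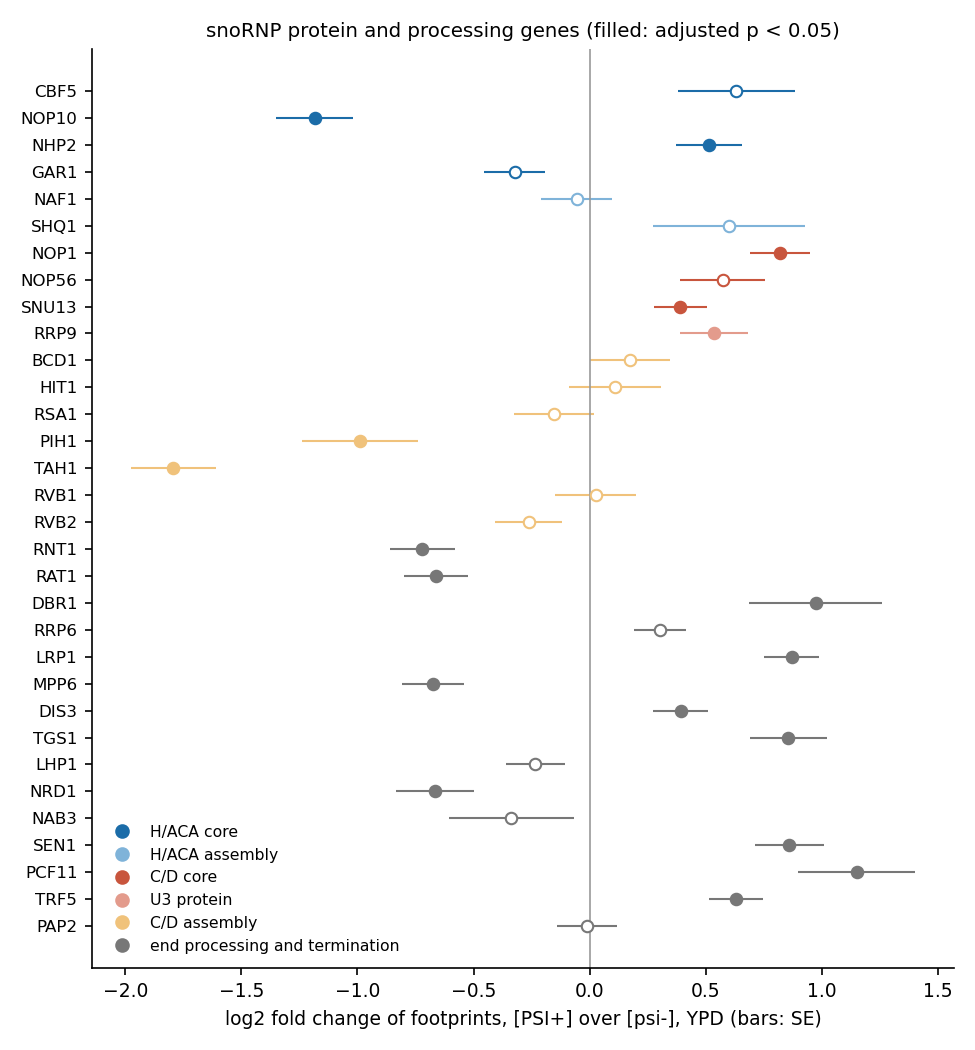
Log2 fold change of footprints, [PSI+] over [psi-] in YPD, for 32 genes of snoRNA-binding and snoRNA-processing proteins, with its SE. Filled points passed an adjusted p of 0.05 by edgeR's quasi-likelihood test. TAH1 is lowest at -1.79 and PCF11 highest at 1.15.

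These calls depended on the [psi-] pair, whose libraries lay close together (chi-square per degree of freedom 1.27). The [PSI+] libraries lay further apart: between runs of different [PSI+] libraries the lowest such value was 19.4. Without either [psi-] library 0 genes rose and 1, TAH1, fell by edgeR, and DESeq2 called 3 as higher (NOP1, LRP1 and PCF11) and 7 as lower. In mRNA, with 1 library per strain and no test, 27 of 32 genes lay above the median log2 ratio of all genes with 20 or more reads, which was -0.42. The 4 H/ACA core genes had a median of 2.43 relative to that median, from 2.11 (NOP10) to 2.69 (NHP2). TRF5 was the highest single gene of the list, at 3.365, and NOP56 stood at 2.56. NOP1 stood at 1.69, TAH1 at 0.66 and PIH1 at -0.56.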

How the data were processed

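For the YNB table of the authors, the submitters' processing notes list the build sacCer3 and the tools cutadapt 1.2.1, Bowtie2, DESeq 1.6.1 and HTSeq 0.5.3p3; strand use and the treatment of reads with several matches are not given in the sources used here. Per the file headers it holds, for each condition, a mean count divided by size factors, with a fold, a log10 fold, and a p-value with its adjusted value, all deposited by the authors. For YPD the deposited counts per gene (sacCer2, Bowtie 0.12.7 and HTSeq 0.5.3p3, per the submitters' processing notes) carry 1 added to each value; 0 columns were without a sample.

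Reads per library were recovered from the YNB means. Of 827 [PSI+] and 812 SUP35-Cter means up to 80, all were whole combinations of reads within 0.0008 normalized counts; larger means were solved with the deposited p-value as well. In all 5283 of 6190 features (85.3%) were solved. Tested on simulated data, 5107 of 6146 features were solved, all of them to the right reads. The simulated p-values followed the model that the recovery assumes, so that model was not tested. Of the 5283 features, 3853 rest on it. Log2 ratios have 0.5 added to each mean, and medians use means of 10 or more. The count test was that of edgeR 4.0.16 under R 4.3.3 (quasi-likelihood, TMM factors, minimum count 10, Benjamini-Hochberg adjusted p under 0.05); for the recovered reads the authors' size factors were used. In a simulation of the YPD comparison over 5105 genes it recovered 71 of 100 changes of log2 size 1 and 100 of 100 of size 2, with 13 false calls. DESeq2 1.42.0 was an alternative. YPD footprint depth was 2497170 and 3257673 reads in [PSI+] and 3461402 and 3579039 in [psi-]; mRNA depth was 5494957 and 2480012. Both [PSI+] footprint libraries are sums of 2 runs that differed by no more than sampling noise, with a chi-square of 1.01 and 0.997 per degree of freedom.

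The members and all gene lists, roles and targets were chosen with earlier results of these data known. Named in full are, per class, the 8 most abundant members, the 6 highest and 6 lowest ratios, cleavage members, and members within 500 bases of each other. The labels call the libraries replicates and, for YNB, do not say that they came from separate cultures, so p-values reflect the spread between libraries, which may be technical. Floors cover counting error only.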

Additional observations from a re-analysis of the deposited data

How the results depend on the processing

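The H/ACA median log2 ratio stayed between 2.19 and 2.39 with 1 or 5 or nothing added to the means, other minimum means, or another scaling, and the median of C/D and spliceosomal members together (1.23) between 1.18 and 1.42. Scaling to the sum of the means shifted all ratios by 0.19. Leaving out 1 library at a time, with the recovered reads and chosen after seeing the data, gave 0.67 to 2.85 for H/ACA and -0.082 to 1.83 for C/D with spliceosomal members. The lowest values came without the deeper SUP35-Cter library. Of the 45 members with recovered reads and a higher mean in SUP35-Cter, 14 then turned below [PSI+], 10 of 23 C/D and 4 of 21 H/ACA members. In C/D these were snR39B (-1.50, the lowest), snR47, snR48, snR55, snR61, snR63, snR65, snR67, snR68 and snR71. In H/ACA they were snR84, snR85 and, of those the authors' table called, snR31 (-0.076; 3.25 at the highest, without the deeper [PSI+] library) and snR34 (-0.005; 2.15 at the highest, without the shallower SUP35-Cter library). Without the deeper [PSI+] library snR67 turned, and without the shallower one snR84. edgeR on the recovered reads, also chosen after seeing the data, called 0 of 4713 features, against 82 of 6190 in the authors' table. Features without recovered reads, snR43 among them, could not enter the edgeR test. At an adjusted p under 0.1 that table gave 20 H/ACA members and 7 C/D and spliceosomal ones, against 19 and 5. Among the protein genes in YPD, called 11 higher and 7 lower, DESeq2 gave 3 higher and no filter on low counts 6 higher. Without 1 library the counts ran from 0 to 17 higher and from 1 to 12 lower, fewest without a [psi-] library. The cause was not tested. Of 18 called protein genes, 34 of 72 settings without a library lost the call. No paired analysis was possible because the YNB table gives condition means, and the [PSI+] columns in YPD are runs that carry no replicate number of the labels. A class taken from RefSeq could not be run, as its table gives no box class, nor could alternatives for snR features in YPD. Depth limits the shallower [PSI+] library most, where 3 reads are worth 8.33 normalized counts.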

Other observations

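Other untranslated RNAs read in the same YNB libraries, with no tRNA among them, did not move together. LSR1, the U2 RNA of the spliceosome, had 5176 normalized counts in the deeper and 2460 in the shallower SUP35-Cter library, against 1591 and 707.7 in [PSI+], without overlap. RPR1, the RNA of RNase P, had 3038 and 1481, against 5750 and 3003. TLC1, the telomerase RNA, had 282.0 and 186.5, against 422.6 and 260.9. SCR1, the RNA in the signal recognition particle, had an authors' mean of 80519 in SUP35-Cter and 6263 in [PSI+]. NME1, the RNA of RNase MRP, had 46585 in SUP35-Cter and 156776 in [PSI+]; for both, reads per library were not recovered. In the 3 with reads per library, the deeper SUP35-Cter library was the higher one by 0.60 to 1.07 on the log2 scale, below the snoRNA median of 2.31. The deeper [PSI+] library was also the higher one of its pair in all 3, so their gap was not particular to SUP35-Cter.

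Of the 50 features with the largest excess of the deeper over the shallower SUP35-Cter library, 31 were snoRNAs. The others, named after their values were seen, included GIS2, with 4203 and 629.2 normalized counts in SUP35-Cter against 1797 and 4745 in [PSI+], and the alcohol dehydrogenase gene ADH1, with 7436 and 1131 against 2691 and 6288. DUR3, the urea transporter gene, had 1649 and 378.6, against 543.1 and 943.5. In these 3 genes the [PSI+] libraries also differed, with the shallower library higher.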
